A study of Homo sapiens with 6 samples.

Results

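Glycolysis and hypoxia response genes were examined in L428, an established human Hodgkin lymphoma cell line, after BATF3 was lowered with an siRNA. The list named 38 genes, and 35 of them had a probe set that reads a single gene, out of 18244 genes measured. Where a gene had several such probe sets, the brightest on average was used. The carbonic anhydrase CA9, the lactate exporter SLC16A3 and the glucose transporter SLC2A3 had no such probe set and were not analysed here. The genes were listed by name and not by a cut on their values, though earlier results of these data were known. For each gene the change between the siRNAs is given beside variation that the arrays numbered replicate 2 had in common. The main siRNA fit held no term for the replicate number, so it does not remove that variation.

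The BATF3 siRNA group held 3 arrays and the negative control siRNA group 3 arrays. Each nucleofection, a form of electroporation, took 3 µg of siRNA, and total RNA was taken after 48 hours in culture. All 6 arrays therefore carried the same cell line, nucleofection and culture time, and a single siRNA stood for the loss of BATF3. Nothing in the labels says whether the replicates were separate cultures. The p-values thus measure the spread between these arrays, and that may be technical. The labels name no hypoxic treatment.

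Glycolysis splits glucose into pyruvate in the cytosol and lactate dehydrogenase turns pyruvate into lactate when respiration is limited. Hypoxia-inducible factor, HIF, is a pair of an oxygen-sensitive alpha subunit and the stable subunit ARNT. Prolyl hydroxylases mark the alpha subunit for destruction while oxygen is present. When oxygen falls, HIF binds short elements with the core ACGTG or GCGTG near many glycolytic genes and near genes for iron- and oxygen-dependent hydroxylases, mitophagy, angiogenesis and lipid storage.

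The promoters of 31 of the 35 measured genes were in the RefSeq table for GRCh38.p14, as windows of 300 bases from 250 before to 50 after the gene start. The HIF core ACGTG, searched on both strands, lay in 12 of these 31 windows (38.7%), against 21.4% of 35116 promoters in the table and 23.8% of the 14494 promoters of genes measured here. The core GCGTG lay in 15 of 31 (48.4%), against 36.5% of all promoters and 44.6% of those of measured genes. The palindrome CACGTG, which holds ACGTG on both strands, lay in 5 of 31 (16.1%), against 7.26% and 8.80%. These shares were higher in a further list of other hypoxia and HIF pathway genes, with 49 promoters. There ACGTG lay in 29 (59.2%), GCGTG in 26 (53.1%) and CACGTG in 13 (26.5%). The median GC content was 69.7% in the windows of the listed genes and 63.0% in those of measured genes, and base composition bears on all of these shares. A match describes the letters of the window and not a bound site.

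The 250 bases before the start of 4 of the genes are printed, chosen after their values were seen, because 3 of them (BNIP3, LDHA and PGK1) were lowest in both replicate 2 arrays and ANKRD37 was not. Capitals mark ACGTG or GCGTG on either strand.
BNIP3, chr10:131981924-131982173, minus strand: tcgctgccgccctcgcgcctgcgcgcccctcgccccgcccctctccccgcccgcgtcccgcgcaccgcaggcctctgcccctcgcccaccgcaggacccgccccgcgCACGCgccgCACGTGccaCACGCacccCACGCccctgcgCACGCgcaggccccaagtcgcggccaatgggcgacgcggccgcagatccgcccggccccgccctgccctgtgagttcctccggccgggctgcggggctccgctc
LDHA, chr11:18394313-18394562, plus strand: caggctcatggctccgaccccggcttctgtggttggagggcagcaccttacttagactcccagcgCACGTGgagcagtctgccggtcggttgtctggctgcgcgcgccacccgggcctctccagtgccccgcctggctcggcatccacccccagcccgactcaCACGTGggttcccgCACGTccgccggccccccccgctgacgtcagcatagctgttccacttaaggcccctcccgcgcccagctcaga
PGK1, chrX:78103998-78104247, plus strand: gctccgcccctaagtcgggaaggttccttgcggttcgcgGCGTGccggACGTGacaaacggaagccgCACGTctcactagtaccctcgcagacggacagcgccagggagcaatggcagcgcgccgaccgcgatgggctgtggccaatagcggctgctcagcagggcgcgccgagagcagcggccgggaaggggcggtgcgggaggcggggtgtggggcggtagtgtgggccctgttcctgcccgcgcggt
ANKRD37, chr4:185396591-185396840, plus strand: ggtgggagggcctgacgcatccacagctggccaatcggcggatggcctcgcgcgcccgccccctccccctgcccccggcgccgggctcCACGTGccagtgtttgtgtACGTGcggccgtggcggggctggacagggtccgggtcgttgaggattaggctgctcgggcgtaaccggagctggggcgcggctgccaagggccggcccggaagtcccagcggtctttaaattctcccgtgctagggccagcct

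Of these stretches, BNIP3 and ANKRD37 hold the palindrome once and LDHA holds it at 2 places. In BNIP3 the marked cores begin between 143 and 104 bases before the start. Of the genes whose replicate 2 arrays were both lowest, 6 of 14 promoters held ACGTG, and 6 of 17 promoters of the other listed genes did. For GCGTG the counts were 6 of 14 and 9 of 17, so these cores went in opposite directions. The split was not tested.

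The arrays had medians between 6.24 and 6.33 on the log2 scale. BATF3 itself had log2 values of 10.87, 10.76 and 10.69 under BATF3 siRNA, against 11.89, 12.08 and 11.94 under control siRNA. The difference was -1.20 (SE 0.095, limma adjusted p = 0.00673), so the siRNA labels match the targeted gene. Of 10 Hodgkin and Reed-Sternberg markers, 8 were above the highest background probe set throughout. All 6 T and NK cell markers, 5 myeloid markers and 6 fibroblast and epithelial markers were below it in all 6 arrays, so defining markers of those cell types stayed at background. Of 3 red cell markers 2 were measured and 1 was below it in all 6. MYC differed by -0.13 (limma adjusted p = 0.822). RNA was measured in bulk, where fewer cells of a kind and less RNA per cell cannot be told apart.

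Between the siRNAs, no gene of the list passed limma's test at an adjusted p of 0.05, beside 3 of 18244 genes (0.0164%). At an unadjusted p under 0.05 there was 1 gene of the list, EPAS1, beside 7.15% of all genes. The difference, BATF3 siRNA minus control siRNA, was positive for 19 genes and negative for 16, beside 49% positive among all genes. Its median was 0.013, against -0.0027 over all genes. It was under 0.1 in size for 22 of the 35. For 31 of the 35 the 95% interval lay within a 1.5-fold change in either direction, and the other 4 were PFKL, EPAS1, NDRG1 and ADM. The fit held no replicate number, so variation that went with it stays in these intervals. The groups did not overlap for 6 genes, beside 12.1% of all genes. HK2 and EGLN3 lay above in BATF3 siRNA (6.36% of all genes), and PFKL, PKM, PFKFB4 and EPAS1 below (5.78%).

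**Figure D1:**
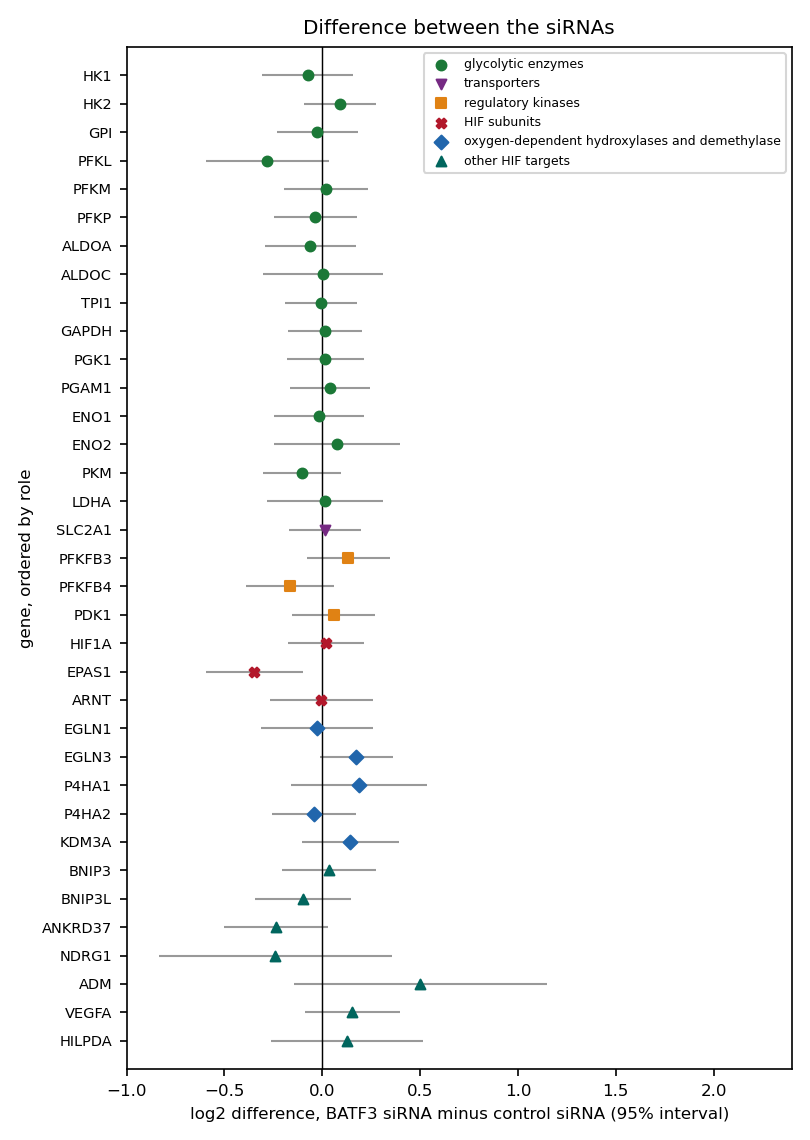
Points are the log2 difference, BATF3 siRNA minus control siRNA, of the 35 measured genes, ordered by role, and lines are the 95% intervals from limma with 3 arrays in each group. Differences run from -0.35 for EPAS1 to 0.50 for ADM, and EPAS1 is the gene whose interval leaves out 0.

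Variation that went with the replicate number took a median of 59.8% of the sum of squares in the list. Each gene's sum of squares over the 6 arrays was split into a share for the siRNA, a share for the replicate number and a residual, as a description. The other median shares in the list were 7.96% for the siRNA and 20.5% for the residual. Over all genes the medians were 37.0% for the replicate number, 14.3% for the siRNA and 35.3% for the residual. The replicate number, with 2 degrees of freedom against 1, took a larger share than the siRNA in 26 of the 35 genes, which is near the 67.9% of all genes. It took more than 50% in 21 of 35, beside 35% of all genes.

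For the list as a whole, replicate 2 was the low array in both groups. Replicate 2 was singled out with results known, so the counts below are descriptions and not tests. Both replicate 2 arrays lay below the other 4 for 16 of the 35 genes, beside 7.59% of all genes. Among genes with a mean log2 value of at least 10 this held for 13 of 24 listed genes, beside 9.9% of all genes at that level. Both replicate 2 arrays lay above the other 4 for 1 gene, the muscle-type phosphofructokinase PFKM, beside 10.3%. The other replicate numbers gave smaller counts. No gene was lowest in both replicate 1 arrays (7.25% of all genes), and PFKM and ALDOC were lowest in both replicate 3 arrays (4.45%). GAPDH was highest in both replicate 1 arrays (5.7%) and PGK1 in both replicate 3 arrays (3.71%).

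The offset of replicate 2, its value minus the mean of replicates 1 and 3 of the same siRNA, was negative in both groups for 24 of 35 genes, beside 24.2% of all genes. It was positive in both for 1 gene, beside 29.6%. It was at least 0.2 below 0 in both for 5 genes, beside 2.92%. The 119 probe sets that read these genes gave the same picture, with 78 negative in both groups and 5 positive in both, beside 26% and 27.2% of all single-gene probe sets. Probe sets of a gene overlap and are not independent. The mean over the list of each gene's deviation from its own mean was 0.087, -0.129 and 0.044 in BATF3 siRNA replicates 1, 2 and 3, against 0.060, -0.107 and 0.044 in the control siRNA replicates. The mean offset of replicate 2 over the list was -0.177, and the mean difference between the siRNAs was 0.0013.

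**Figure D2:**
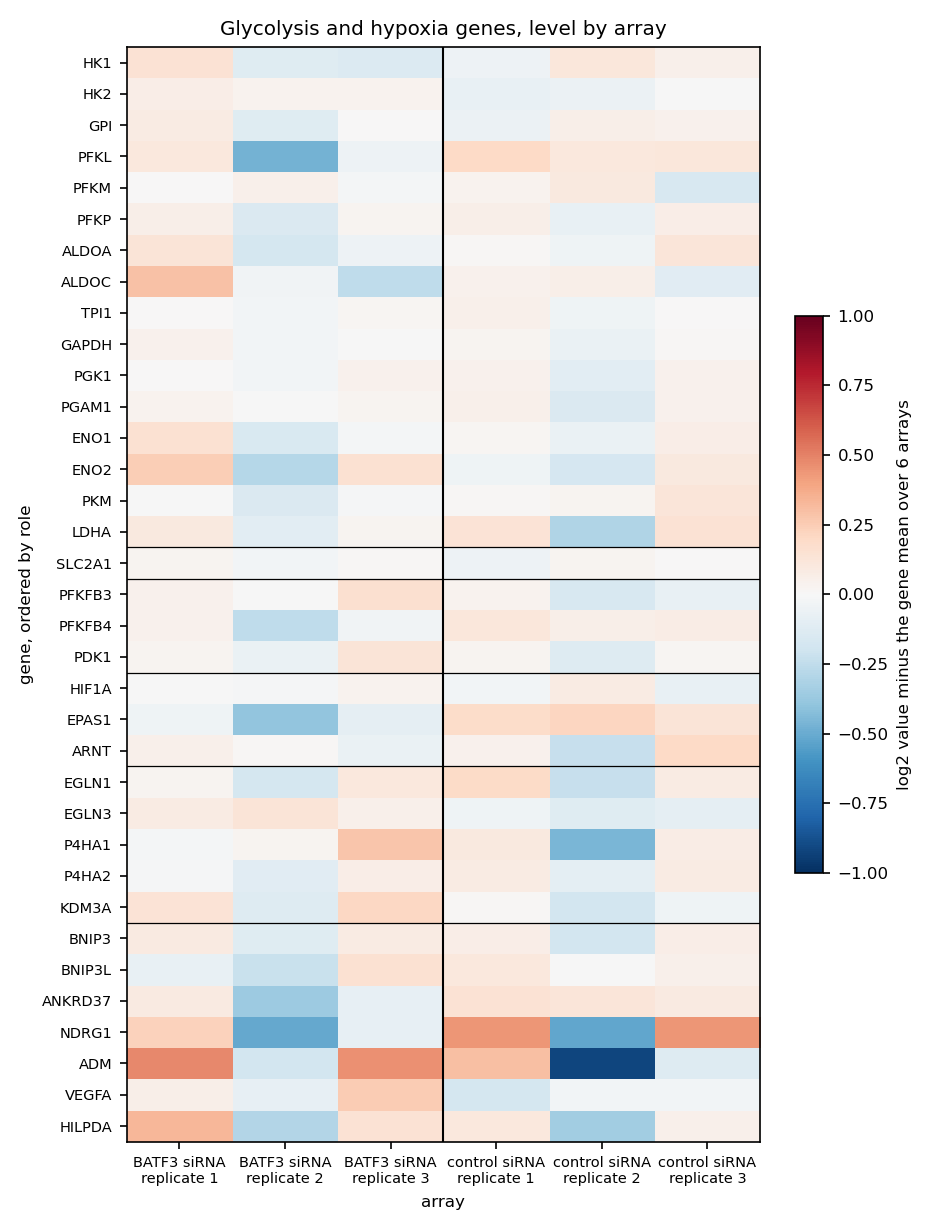
Each cell is a gene's log2 value minus its mean over the 6 arrays, with genes ordered by role and BATF3 siRNA arrays to the left of control siRNA arrays. The replicate 2 columns are blue for most genes in both groups, with ADM in the control siRNA array and NDRG1 in both among the deepest.

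The test of the replicate number, limma's F-test in a fit that also held the siRNA, passed no gene of the list and no gene of 18244 (0%). At an unadjusted p under 0.05 there were 3 listed genes, beside 5.67% of all genes, and these were ADM, NDRG1 and HILPDA (limma adjusted p = 0.857 for each). The numbers above for replicate 2 are therefore descriptions of these 6 arrays. With BATF3 siRNA replicate 3, control siRNA replicate 3 or both of them left out, ADM and NDRG1 passed in each case, with limma adjusted p between 0.00103 and 0.0103. Listed genes passed only in fits with replicate 3 arrays left out. Those fits kept 1 residual degree of freedom before the spread was shared over genes. It came from the replicate 1 and 2 arrays in each case, so these fits are not separate evidence. After sharing they had 55.46 in total, against 8.276 with all 6 arrays, so their p-values lean on the shared spread. The values of ADM in 5 arrays and of NDRG1 in all 6 were below the highest background probe set.

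Some control probe sets of the arrays were also lowest in replicate 2 of each group. The GAPDH 5′ control probe set read 13.50, 13.41 and 13.51 under BATF3 siRNA, against 13.52, 13.47 and 13.49 under control siRNA. The GAPDH 3′ and middle probe sets and the ACTB 5′ probe set were lowest there in each group too, as was the highest background probe set, at 7.18, 6.68 and 6.73 under BATF3 siRNA, against 7.32, 7.11 and 7.16 under control siRNA. GAPDH is itself a listed gene. Other control values did not go with replicate 2 in both groups. GC-rich background probes read 6.49, 5.92 and 5.98 under BATF3 siRNA, against 6.49, 6.48 and 6.46 under control siRNA. Replicate 2 was low with replicate 3 under BATF3 siRNA and level with the others under control siRNA. The ACTB 3′ probe set minus its 5′ probe set, a sign of RNA integrity, was 0.49, 0.62 and 0.60 under BATF3 siRNA, against 0.54, 0.37 and 0.55 under control siRNA. It was highest in replicate 2 under BATF3 siRNA and lowest in replicate 2 under control siRNA. The same difference for GAPDH lay between -0.24 and -0.17 in all 6 arrays. The labels give nothing that the replicate 2 arrays shared beyond their number, and the part of these control values in the low genes was not tested.

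Glycolytic enzymes made up 16 of the measured genes. None passed either test, and 8 of the 16 were lowest in both replicate 2 arrays: PFKP, TPI1, GAPDH, PGK1, PGAM1, ENO1, ENO2 and LDHA. Lactate dehydrogenase A, LDHA, had 13.07, 12.86 and 12.99 under BATF3 siRNA, against 13.10, 12.67 and 13.11 under control siRNA. Both replicate 2 arrays were lowest and the groups overlapped, with a difference of 0.01 (SE 0.13). All 4 LDHA probe sets had a negative offset in both groups.

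Enolase 2, ENO2, the neuronal form that is also a HIF target, had 10.58, 10.05 and 10.48 under BATF3 siRNA, against 10.29, 10.17 and 10.43 under control siRNA. Replicate 2 was lowest in each, by 0.49 and 0.19. For GAPDH, often used to normalize other measurements, the offset was -0.05 under BATF3 siRNA and -0.09 under control siRNA, and the siRNA difference was 0.01 (SE 0.084). For the phosphoglycerate kinase PGK1 the offsets were -0.05 and -0.15. In the probe sets used, replicate 2 was low in both groups for GAPDH and PGK1, by less than for LDHA and ENO2. Of 9 PGK1 probe sets, 6 had a negative offset in both groups and 0 a positive offset in both.

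PFKL, the liver-type phosphofructokinase of the committed step, had 8.82, 8.25 and 8.67 under BATF3 siRNA, against 8.92, 8.83 and 8.84 under control siRNA. The groups did not overlap, though the nearest arrays were close and BATF3 siRNA replicate 2 was the lowest. The difference was -0.28 (SE 0.14, limma adjusted p = 0.736). Aldolase C, ALDOC, had 6.49, 6.16 and 5.94 against 6.24, 6.25 and 6.08 under control siRNA, lay below the highest background probe set in all 6 arrays and differed by 0.01. Hexokinase 2, HK2, which starts glycolysis, lay higher in all 3 BATF3 siRNA arrays, by 0.09 (SE 0.082, limma adjusted p = 0.869). The other HK2 probe set differed by -0.11. The last step's pyruvate kinase PKM was lower in all 3 BATF3 siRNA arrays, with a difference of -0.10 (SE 0.089, limma adjusted p = 0.860). The glucose transporter SLC2A1 differed by 0.01 (SE 0.082), and its replicate 2 offsets were -0.05 and 0.05.

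The regulatory kinases set the flow through the pathway. PFKFB3 and PFKFB4 make and break fructose 2,6-bisphosphate, the activator of phosphofructokinase. PFKFB3 had 10.45, 10.40 and 10.56 under BATF3 siRNA, against 10.43, 10.24 and 10.33 under control siRNA, a difference of 0.13 (SE 0.094, limma adjusted p = 0.838) with overlap. PFKFB4 had 9.77, 9.47 and 9.68 against 9.84, 9.78 and 9.80 under control siRNA. The groups of PFKFB4 did not overlap, with a difference of -0.17 (SE 0.10, limma adjusted p = 0.809). PDK1, which inhibits pyruvate dehydrogenase, was lowest in both replicate 2 arrays, by 0.14 and 0.15.

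**Figure D3:**
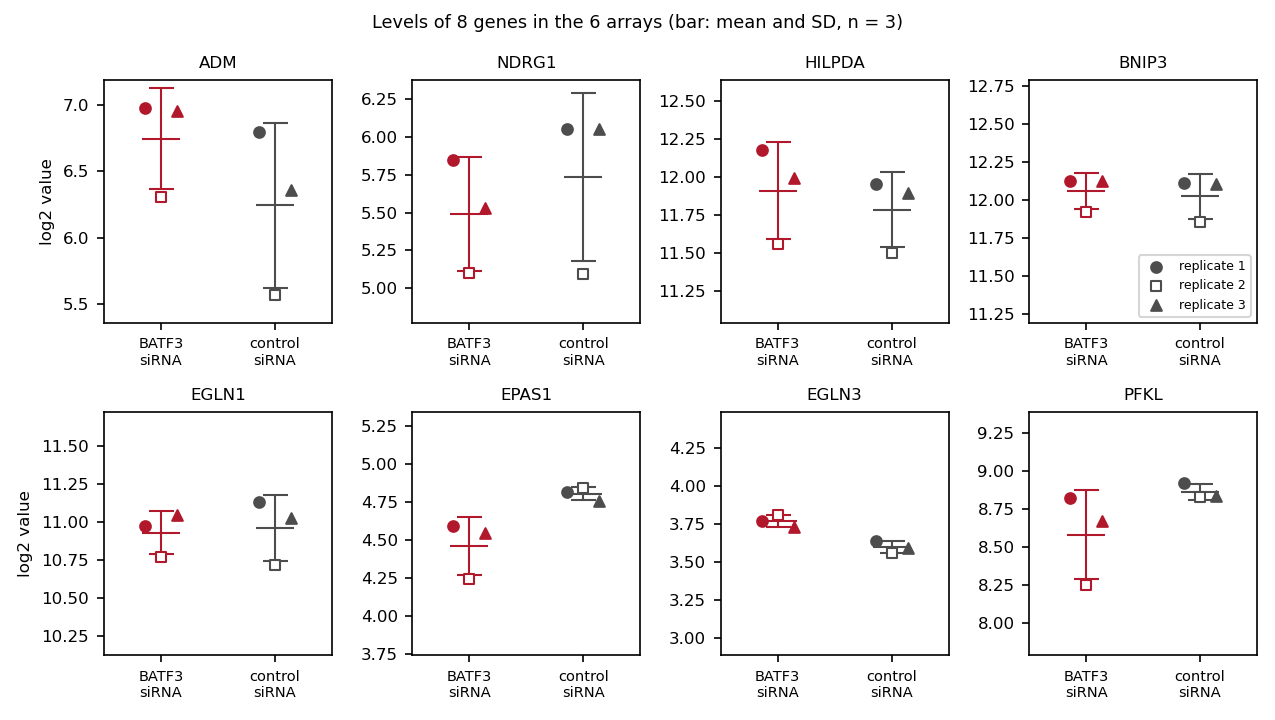
Points are the log2 values of 8 genes in the 6 arrays, BATF3 siRNA left of control siRNA, with each panel on its own axis and bars giving the mean and SD of 3 arrays. Open squares, the replicate 2 arrays, are lowest in both groups for ADM, NDRG1, HILPDA, BNIP3 and EGLN1, while for EPAS1, EGLN3 and PFKL the groups do not overlap.

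The HIF subunits were 3 genes, and none of them was lowest in both replicate 2 arrays, though the median of their offsets averaged over both groups was -0.13. HIF1A, the alpha subunit found in most cells, had 10.90, 10.89 and 10.94 under BATF3 siRNA, against 10.87, 10.99 and 10.83 under control siRNA. Replicate 2 was the lowest by a small margin under BATF3 siRNA and the highest under control siRNA. The difference was 0.02 (SE 0.086) in the probe set used, and all 8 HIF1A probe sets were higher under BATF3 siRNA, by up to 0.25. The constant partner ARNT had 8.84, 8.81 and 8.73 against 8.84, 8.56 and 8.99 under control siRNA, with the low value in control replicate 2 and a difference of -0.01 (SE 0.12).

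EPAS1 encodes HIF-2 alpha, the alpha subunit known best from endothelium and kidney. Its levels were 4.59, 4.24 and 4.54 under BATF3 siRNA, against 4.81, 4.84 and 4.76 under control siRNA. The 3 control siRNA arrays lay above the 3 BATF3 siRNA arrays, with a difference of -0.35 (SE 0.11, 95% interval -0.59 to -0.10, limma adjusted p = 0.543). All 6 values were below the highest background probe set, and the other EPAS1 probe set differed by 0.24.

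The oxygen-dependent enzymes include the prolyl hydroxylases that mark HIF and those that act on collagen. EGLN1, the main sensor of oxygen for HIF, had 10.97, 10.77 and 11.05 under BATF3 siRNA, against 11.13, 10.71 and 11.03 under control siRNA. Both replicate 2 arrays were lowest, by 0.24 and 0.37, and the groups overlapped. EGLN3, a strongly HIF-induced form, had 3.77, 3.81 and 3.73 against 3.64, 3.56 and 3.60 under control siRNA. All BATF3 siRNA values were above, by 0.17 (limma adjusted p = 0.733), but all 6 were below the highest background probe set and its other probe sets differed by -0.10 and -0.04.

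P4HA1, a collagen prolyl hydroxylase, had 10.91, 10.96 and 11.20 under BATF3 siRNA, against 11.03, 10.47 and 11.00 under control siRNA. Its low value was in control replicate 2 and the groups overlapped (difference 0.19, SE 0.15). KDM3A, a histone H3 lysine 9 demethylase that HIF induces, had 9.18, 8.92 and 9.25 against 9.06, 8.86 and 9.00 under control siRNA. Both replicate 2 arrays were lowest and the difference was 0.14 (SE 0.11). P4HA2 was lowest in both replicate 2 arrays as well, by 0.13 and 0.18.

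The other HIF targets had a median offset, averaged over both groups, of -0.23, as the hydroxylases did. ADM, the vasodilator peptide adrenomedullin, had 6.97, 6.31 and 6.95 under BATF3 siRNA, against 6.80, 5.57 and 6.36 under control siRNA. Replicate 2 stood at 0.635 times the mean of the other replicates under BATF3 siRNA and at 0.498 times under control siRNA. The groups overlapped, with a difference of 0.50 (SE 0.29, limma adjusted p = 0.798). With the replicate number as a block the SE was 0.12 (limma adjusted p = 0.456). All 3 ADM probe sets had negative offsets in both groups and higher means under BATF3 siRNA. The values of 5 arrays were below the highest background probe set.

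NDRG1, a stress-response protein, had 5.85, 5.10 and 5.53 under BATF3 siRNA, against 6.05, 5.09 and 6.05 under control siRNA. Replicate 2 stood at 0.665 and 0.515 times the others, and the replicate number took 84.0% of the sum of squares. The groups overlapped, with a difference of -0.24 (SE 0.27, limma adjusted p = 0.900). With the replicate number as a block the SE was 0.12 (limma adjusted p = 0.743). All 6 values lay below the highest background probe set. Of 6 NDRG1 probe sets, 2 had a negative offset in both groups and 2 a positive offset in both, so the pattern rests on the probe set used.

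HILPDA, a lipid droplet protein, had 12.18, 11.56 and 11.99 under BATF3 siRNA, against 11.95, 11.50 and 11.90 under control siRNA. Both replicate 2 arrays were lowest, by 0.53 and 0.43, at a level far above background, and both of its probe sets had negative offsets. The mitophagy receptor BNIP3 had 12.13, 11.92 and 12.13 against 12.11, 11.85 and 12.11 under control siRNA. The replicate number took 96.6% of its sum of squares, and the siRNA difference was 0.03 (SE 0.11). Its relative BNIP3L had a negative offset in both groups in 6 of 6 probe sets, by 0.26 and 0.08 in the one used. Some of these 6 have identical means and offsets, so they are not separate measurements.

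ANKRD37, a small ankyrin repeat protein, had 11.73, 11.28 and 11.56 under BATF3 siRNA, against 11.79, 11.77 and 11.73 under control siRNA. The low array was BATF3 siRNA replicate 2 alone, with offsets of -0.36 and 0.01, and the difference was -0.24 (SE 0.12, limma adjusted p = 0.738). VEGFA, the main angiogenic growth factor, had 9.29, 9.14 and 9.48 against 9.05, 9.20 and 9.20 under control siRNA, a difference of 0.15 (SE 0.11, limma adjusted p = 0.835). The offsets of VEGFA were -0.24 and 0.08. Of 10 VEGFA probe sets, 9 were higher under BATF3 siRNA and 1 was lower. For these genes and HIF1A replicate 2 was not low in both groups in the probe set used. Offsets were negative in both groups for 1 of 2 ANKRD37 probe sets, 4 of 10 for VEGFA and 2 of 8 for HIF1A.

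**Figure D4:**
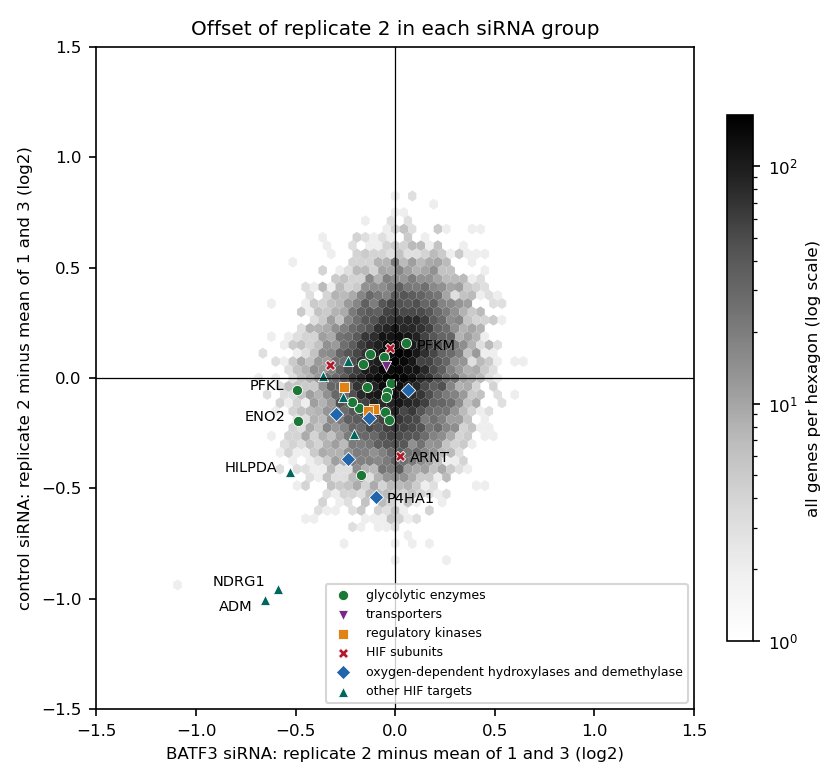
Each point is a listed gene, with the log2 offset of replicate 2 from the mean of replicates 1 and 3 in BATF3 siRNA on the horizontal axis and in control siRNA on the vertical axis, over hexagons that count all genes. 24 of the 35 points lie in the lower left, below 0 on both axes, with NDRG1 and ADM farthest out.

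The offsets of the 35 genes in the BATF3 siRNA and control siRNA groups correlated at 0.558 (Spearman 0.313), against 0.146 over all genes. Genes of an array share its RNA and hybridisation, so this is a description. Without ADM and NDRG1, the genes with the offsets farthest from the median under BATF3 siRNA, it was 0.202 over 33 genes, so the value rests largely on these genes.

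A longer list of other hypoxia and HIF pathway genes had 58 of 60 genes measured. None passed the siRNA or the replicate test, and 19 of the 58 were lowest in both replicate 2 arrays (7.59% of all genes), while 3 were highest in both (10.3%). Of the same 58, 32 had negative offsets in both groups (24.2% of all genes). The cyclin CCNG2 had 8.41, 7.89 and 8.57 under BATF3 siRNA, against 8.37, 7.62 and 8.35 under control siRNA. The clock repressor BHLHE41 had 6.86, 6.29 and 6.79 against 7.40, 6.71 and 7.31 under control siRNA. Replicate 2 was lowest in each group for both genes (limma F-test, adjusted p = 0.857 for each). Between the siRNAs, the genes of smallest p were RBPJ, the DNA-binding partner of Notch, and VHL, the ligase subunit that binds hydroxylated HIF alpha. RBPJ had 10.49, 10.18 and 10.45 under BATF3 siRNA, against 10.67, 10.71 and 10.72 under control siRNA, a difference of -0.33 (limma adjusted p = 0.543). VHL had 8.39, 8.49 and 8.42 under BATF3 siRNA, against 8.27, 8.08 and 8.06 under control siRNA, a difference of 0.29 (limma adjusted p = 0.551). The groups did not overlap for either gene, and neither was called.

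A list of other glycolysis and pyruvate genes, 35 of 40 measured, gave counts near those over all genes, save for negative offsets. LDHB and PFKFB1, 2 of the 35, were lowest in both replicate 2 arrays (7.59% of all genes). There were 5 that were highest in both (10.3%) and 11 with positive offsets in both groups (29.6%). Negative offsets in both groups were found for 5 of the 35, below the share of all genes (24.2%). None passed the siRNA or the replicate test. TIGAR, a phosphatase that opposes glycolysis, had 7.44, 7.78 and 7.35 under BATF3 siRNA, against 6.89, 7.53 and 6.97 under control siRNA, with replicate 2 highest in each (limma F-test, adjusted p = 0.857). DLAT, part of pyruvate dehydrogenase, had 8.21, 8.86 and 8.62 under BATF3 siRNA, against 8.33, 8.58 and 8.40 under control siRNA (limma F-test, adjusted p = 0.857). Replicate 2 was the highest of each group here too. PGAM2, the muscle phosphoglycerate mutase, had 4.43, 4.65 and 4.65 under BATF3 siRNA, against 4.85, 5.18 and 4.86 under control siRNA, a difference of -0.38 (limma adjusted p = 0.529). PGM1, which links glycogen to glycolysis, had 8.94, 8.83 and 8.80 under BATF3 siRNA, against 9.04, 9.04 and 9.08 under control siRNA, a difference of -0.20 (limma adjusted p = 0.689). Both lay lower in all 3 BATF3 siRNA arrays, neither was called, and PGAM2 was below the highest background probe set in all 6 arrays. The difference between the lists was not tested.

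**Figure D5:**
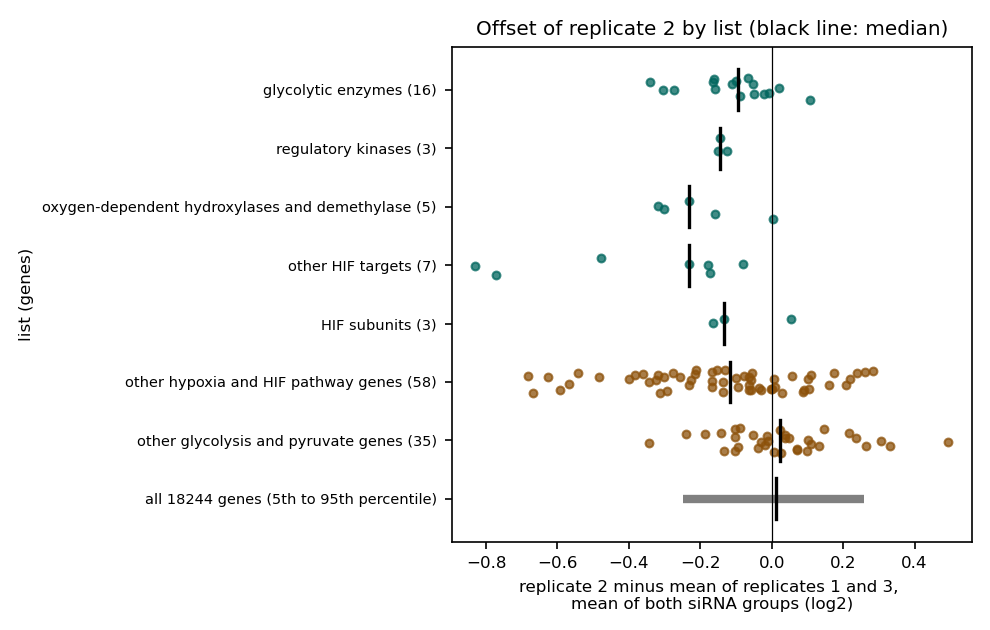
Points are genes, placed by the log2 offset of replicate 2 averaged over both siRNA groups, with a black line at each list's median and a grey bar for the 5th to 95th percentile of all 18244 genes. The listed roles and the other hypoxia genes lie mostly left of 0, and the other glycolysis and pyruvate genes lie on both sides of 0.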

How the data were processed

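Total RNA from L428 cells was hybridised to 6 Affymetrix PrimeView arrays. The deposited table holds the authors' log2 values, 1 for each of 49495 probe sets and array, with base 2 read from their range. The affy package is named per the submitters' processing notes, and the steps run with it were not given in the sources used here. All 6 medians are alike; if arrays were scaled to each other, a change of most transcripts in 1 direction would be hidden. Values were used as deposited.

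Of the probe sets 102 were controls, 45278 listed 1 gene, 1333 several and 2782 none. Gene symbols, taken from the platform annotation, were checked by Entrez ID against RefSeq for 45208 probe sets, of which 0 changed. For each of 18244 genes the single-gene probe set with the highest mean over 6 arrays was taken. No pair of arrays held identical values. Probe sets for genes with near-identical copies, such as GAPDH and PGK1, may read those too.

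The siRNAs were compared in R 4.3.3 by a linear model with moderated variances, two-sided (limma 3.58.1), with Benjamini-Hochberg adjustment over all genes and a threshold of 0.05. The replicate number was tested by limma's F-test in a fit with the siRNA. With 3 arrays against 3 an exact permutation test cannot go below p = 0.1. Both tests were tried on simulated data. Promoter sequences came from RefSeq (GRCh38.p14), the first listed start of each gene.

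Values in every array are given for the 10 genes of smallest p in each test, the HIF subunits, EGLN1 and EGLN3, and 2 genes per test from each further list. Alternatives covered normalization, dim genes, probe set choice, spread model, background, threshold and left-out arrays. The members, the lists and replicate 2 were chosen with earlier results of these data known.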

Additional observations from a re-analysis of the deposited data

How the results depend on the processing

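No listed gene was called between the siRNAs under any of the 21 alternative settings (limma adjusted p 0.141 to 1, and 0 to 5 genes at an unadjusted p under 0.05), and the median difference ran from -0.038 to 0.053. Genes called in all numbered 3, against 9 at or above the median level, 7 above background, 5 with the most variable probe set, 25 with array weights, 12 with an intensity trend, 6 at an adjusted p of 0.1, 0 with array background as a block and 0 to 2 with arrays left out. The replicate F-test called 1 gene with the most variable probe set and 3 with an intensity trend, and 0 to 46 with arrays left out (33 without BATF3 siRNA replicate 3, 46 without control siRNA replicate 3, 41 without both); the listed genes called were 0 to 2, ADM and NDRG1. Fits with arrays left out have fewer residual degrees of freedom. Those that called ADM and NDRG1 had 55.46 in total once the spread was shared over genes, against 8.276 with all 6 arrays. They share the same residual from the replicate 1 and 2 arrays and are not separate evidence. The offset of replicate 2 in the list level ran from -0.252 to -0.149 and the siRNA difference from -0.052 to 0.066. Of 389 values for 19 named genes, 38, none of them called, turned direction; the cause was not tested. With quantile normalization these were LDHA -0.0059 and HIF1A -0.0060, with cyclic loess LDHA -0.011 and HIF1A -0.0023, and with median centring, which moved all genes by 0.024, ARNT 0.019. With the most variable probe set they were EGLN3 -0.042, EGLN1 0.0088 and BNIP3 -0.011, and with mean probe sets PFKFB3 -0.013. With array weights they were HILPDA -0.0078, ENO2 -0.042, LDHA -0.117 and BNIP3 -0.038, and with array background as a block NDRG1 0.113, EGLN1 0.015 and ARNT 0.045. With 1 array or both arrays of a number left out, the difference ranged from -0.141 to 0.133 for ALDOC, -0.130 to 0.124 for ARNT, -0.050 to 0.104 for BNIP3, -0.150 to 0.059 for EGLN1, -0.031 to 0.239 for ENO2, -0.030 to 0.071 for HIF1A, -0.015 to 0.303 for HILPDA and -0.133 to 0.089 for LDHA. With 1 array left out the range was -0.123 to 0.092 for ARNT and -0.016 to 0.062 for HIF1A. EGLN1 was 0.038 without both replicate 1 arrays and LDHA -0.075 without both replicate 2 arrays. The replicate numbers were not taken to pair the arrays, since deviations of same-numbered arrays correlated at 0.029, 0.146 and -0.025 over all genes; over the listed genes they correlated at 0.297, 0.558 and 0.284, and differently numbered arrays at -0.541 to 0.377. With the replicate block limma called 3 genes and 0 listed genes (smallest adjusted p 0.456, for ADM). The number of arrays limits precision, and ALDOC, EPAS1, EGLN3, NDRG1 and ADM lie near background.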
